A study of Drosophila melanogaster with 2 samples.

Results

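The regions described are chromatin immunoprecipitation (ChIP-seq) peaks of the Drosophila melanogaster protein CG17806 at divergent promoter pairs. A peak belonged to the set when its summit lay within 500 bp of start sites of at least 2 protein-coding genes that point away from each other, that is, with the minus-strand start site at the lower coordinate. Of the 7645 peaks that the authors kept after thresholding on the irreproducible discovery rate (IDR, a measure of how well peak ranks repeat between replicates), 677 met this rule, or 8.86% (Wilson 95% interval 8.24 to 9.51). They made up 30.3% (28.4 to 32.2) of the 2236 IDR peaks within 500 bp of any protein-coding start site. The choice used positions alone and no signal. The other 1559 IDR peaks at protein-coding promoters serve below as the set for comparison.

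The samples were whole pupae aged 24 hours from 1 transgenic fly line that stably carries CG17806 with green fluorescent protein (GFP) at its C-terminal end, precipitated with an antibody against GFP. The labels give 2 biological replicates of 1 group and no other genotype or treatment, so peaks could be compared with other peaks but no condition with another. Whole animals mix all tissues, and a peak does not tell which cells carried it. The list of each replicate and a list called on both together held 30000 peaks each, and the strongest 7645 of each replicate list stand beside the IDR list below as the values per sample. The same rule found 631 peaks among those of replicate 1 and 763 among those of replicate 2. Read depth is unknown. Peaks of 1 library are not independent of each other, so differences between classes of peaks were not tested, and all intervals are Wilson 95% intervals that cover counting error only.

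CG17806 belongs to the ZAD zinc-finger family, a large insect family of DNA-binding proteins in which several studied members act at promoters and insulators. In a divergent pair, a pair of genes is transcribed in opposite directions out of 1 shared stretch of upstream DNA. Such pairs are common in the compact fly genome and often join housekeeping genes of unrelated function, and the stretch between the start sites is usually depleted of nucleosomes when the genes are active.

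The sequences below show a first and a second form of member peak. Other members, such as the Chro and Ssl1 peak described below, had neither form. In the first form the start sites lay more than 200 bp apart and the summit fell between them. The whole stretch between the start sites is printed for 3 of the 12 strongest members (dm6, plus strand, 5′ to 3′, from the Release 6 assembly), with the 21 bases around the summit in capitals. The first is chr3R:15229409-15229664, between Art3 (protein arginine methyltransferase family) and mRpS10 (small subunit of the mitochondrial ribosome). The second is chr3L:5139396-5139618, between Tcs5 and CHMP2B (a subunit of the membrane-cutting ESCRT-III complex). The third is chr2L:8376798-8377034, between CG13390 and CG17294.
Art3 and mRpS10: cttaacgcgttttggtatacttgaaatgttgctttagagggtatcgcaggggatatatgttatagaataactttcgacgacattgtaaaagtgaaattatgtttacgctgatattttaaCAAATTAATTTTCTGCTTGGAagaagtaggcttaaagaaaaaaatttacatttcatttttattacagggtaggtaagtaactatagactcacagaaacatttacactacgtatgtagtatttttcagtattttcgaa
Tcs5 and CHMP2B: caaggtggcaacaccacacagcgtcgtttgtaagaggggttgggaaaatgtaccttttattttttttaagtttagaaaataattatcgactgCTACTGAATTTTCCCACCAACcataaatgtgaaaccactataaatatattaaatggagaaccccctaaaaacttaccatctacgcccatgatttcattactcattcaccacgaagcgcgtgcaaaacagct
CG13390 and CG17294: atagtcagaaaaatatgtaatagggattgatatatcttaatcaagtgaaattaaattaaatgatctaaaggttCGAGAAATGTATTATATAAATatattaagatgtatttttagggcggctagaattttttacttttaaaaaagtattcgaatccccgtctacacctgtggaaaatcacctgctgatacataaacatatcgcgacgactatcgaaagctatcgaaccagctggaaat
These 3 stretches held 69.9%, 61.9% and 69.2% A or T.

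In the second form the start sites lay less than 100 bp apart and the summit fell inside 1 of the genes. Here the stretch between the start sites is given first, and the 21 bases around the summit, which lie outside it, stand on a line of their own in capitals. The pair CG11309 and CG7632 has 38 bases between its start sites, at chr3L:21304659-21304696, and its summit bases at chr3L:21304557-21304577 are in an intron of CG11309. The pair CG8372 and CG8360 has 56 bases at chr2L:8212903-8212958, and its summit bases at chr2L:8213014-8213034 are in an intron of CG8360.
CG11309 and CG7632, between the start sites: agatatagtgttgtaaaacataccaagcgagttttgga
CG11309 and CG7632, summit: ACTTAAATCATCAGCCTTTGA
CG8372 and CG8360, between the start sites: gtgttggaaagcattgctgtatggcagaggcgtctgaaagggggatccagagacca
CG8372 and CG8360, summit: TTTTATTTAGGTATGTATTTG
The stretch between CG8372 and CG8360 held 46.4% A or T and its summit bases held 81.0%, while for CG11309 and CG7632 both were near 66%, at 65.8% and 66.7%.

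Each of the 12 members of highest signal was found in both replicate lists, with a summit within 3 bp in replicate 1 and within 16 bp in replicate 2. The deposited signals have no stated scale, so a peak is given by its rank within a list, with 1 the strongest. The Art3 and mRpS10 peak ranked 9 in the IDR list, 12 in replicate 1 and 5 in replicate 2, with its summit 130 bp upstream of Art3 (FBgn0038306) and 127 bp upstream of mRpS10 (FBgn0038307). A second mitochondrial ribosome gene came next: the peak between mRpS23 and CenG1A, a GTPase-activating protein gene, ranked 10, 8 in replicate 1 and 17 in replicate 2. That summit lay 105 bp upstream of CenG1A and 387 bp upstream of mRpS23, on the CenG1A side of a gap of 492 bp.

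The peak at Chro and Ssl1 ranked 13, with ranks 21 and 7 in replicates 1 and 2. Chro encodes the chromodomain protein Chromator and Ssl1 a subunit of the general transcription factor TFIIH. Their start sites are 105 bp apart, and the summit lay in the 5′ UTR of Chro, 79 bp inside it. The Tcs5 and CHMP2B peak, rank 18 with 23 and 10 in the replicates, was again near the middle, 103 and 121 bp from the start sites of Tcs5 and CHMP2B. The other 8 of the 12 ranked between 19 and 44 and included peaks at eIF4EHP (a cap-binding repressor of translation) and CG18428, CG13390 and CG17294, CG11309 and CG7632, Pdrg1 and Pal1 (an enzyme of peptide amidation), Pex11ab (a peroxisome factor) and CG8320, CG3437 and CG3552, and Fbw5 (an F-box protein) and CG9147. All but 1 of these 8 ranked within the first 65 in each replicate; the CG11309 and CG7632 peak ranked 17 in replicate 1 and 120 in replicate 2. Across the 12, 8 summits lay between the start sites, 2 in a 5′ UTR and 2 more in an intron.

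Seen from the genes, 712 of the 2667 divergent pairs of the annotation with start sites at most 1000 bp apart had an IDR summit within 500 bp of both start sites, or 26.7% (25.1 to 28.4). The share was 24.8% with the strongest peaks of replicate 1 and 29.8% with those of replicate 2. The genes in such pairs were bound more often than other genes in both replicates. Of the 5052 protein-coding genes in a pair, in the IDR list 32.4% had a summit at most 500 bp from one of their start sites, against 12.1% of the 8893 genes in no pair. In replicate 1 the shares were 30.9% of genes in pairs and 12.7% of the others, and in replicate 2 they were 35.2% and 12.2%. A peak between the start sites counts for both genes, so the same was measured per length of promoter: the windows of genes in pairs held 228.1 IDR summits per Mb (1038 in 4.55 Mb), against 111.3 per Mb (1205 in 10.83 Mb) in the windows of other genes.

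The members took in 1364 genes and 723 gene pairs when every start site of a gene was allowed; the 712 pairs above were counted at their closest start sites alone. A single gene pair was found at 640 of the peaks and more than 1 at 37. The most, 21 pairs, came from 1 peak at chr3R:21365242-21365630 that ranked 728, at the mod(mdg4) locus, where many short trans-spliced precursors are annotated as separate genes. Its ranks were 921 in replicate 1 and 462 in replicate 2.

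**Figure D1:**
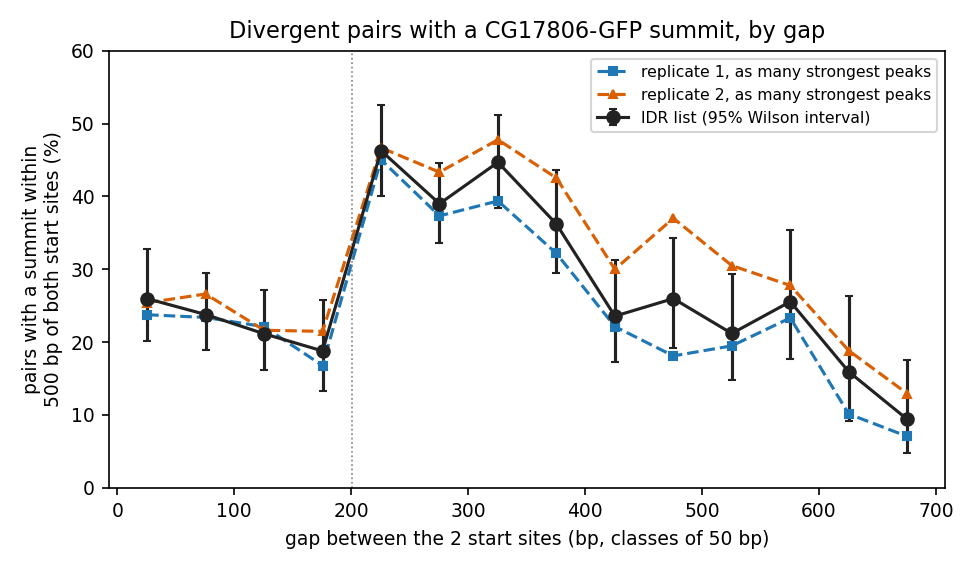
Share of divergent pairs (%, y axis) with a summit within 500 bp of both start sites, by the gap between the start sites in classes of 50 bp (x axis), for the IDR list (bars: Wilson 95% interval) and the strongest 7645 peaks of each replicate; the dotted line marks 200 bp. In the IDR list 18.8% of pairs with a gap of 150 to 200 bp had a summit, and 46.3% of those with a gap of 200 to 250 bp.

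The share of pairs with a summit differed with the gap between the start sites, and the change was abrupt near 200 bp. A summit was found at 24.7% of the 429 pairs with a gap of up to 100 bp, at 20.2% of the 357 with 100 to 200 bp (upper limits included here and below), at 42.3% of the 542 with 200 to 300 bp, at 34.5% of the 667 with 300 to 500 bp and at 11.2% of the 672 with 500 to 1000 bp. In the pooled list, with its weaker peaks, the classes gave 68.8%, 53.5%, 72.7%, 64.2% and 22.5%, so the narrowest pairs came close to those of 200 to 300 bp there. The values of the widest class are held down by the rule, since the stretch within 500 bp of both start sites shrinks from a mean of 944 bp in the first class to 295 bp in the last. With a summit near either start site as the measure, the 5 classes gave 25.2%, 20.7%, 43.4%, 37.2% and 28.7%, so pairs of 200 to 300 bp were still the most often bound. Per kb of that wider window there were 0.240, 0.183, 0.353, 0.280 and 0.188 IDR summits.

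The step was narrower than these classes. In classes of 50 bp, chosen after the values were seen, a summit was found at 28 of 149 pairs with a gap of 150 to 200 bp (18.8%, 13.3 to 25.8) and at 112 of 242 with a gap of 200 to 250 bp (46.3%, 40.1 to 52.6). The same classes gave 16.8% and 45.0% in replicate 1, and 21.5% and 46.7% in replicate 2. Of the 12 strongest members, 7 had a gap from 224 to 376 bp, 4 a gap of at most 134 bp and 1 a gap of 492 bp. Replication-dependent histone genes lie in repeated arrays and none of their 42 pairs had a summit in any list, and without them the class of 150 to 200 bp gave 21.4% of 131 pairs.

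By chromosome arm, the share of pairs with a summit was 22.7% for gaps of up to 200 bp and 41.7% for gaps of 200 to 400 bp over all arms. It was 23.8% and 39.4% on 2L, 20.1% and 38.4% on 2R, 28.2% and 42.4% on 3L, 22.6% and 53.8% on 3R, and 20.0% and 24.4% on X. The longer gaps had the higher share on each of these 5 arms, with the least difference on X. In the narrow classes beside 200 bp, arm 2R did not show the step, with 40.9% of 22 pairs at 150 to 200 bp and 42.2% of 45 pairs at 200 to 250 bp. Chromosome 4 had only 5 and 1 pairs in the broader classes.

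Base composition moved with the gap. The 50 bp to each side of the middle of the gap held on average 58.0% A or T in pairs with a gap of up to 200 bp and 72.1% in pairs with a gap of 200 to 400 bp. At the 429 pairs with a gap of up to 100 bp this window reaches the start sites or goes past them into the genes. At gaps over 200 bp it stays between the start sites, so these values compare partly unlike sequence. All pairs were split at 60.1% and 72.3% A or T into 3 classes of like size. In the AT-poorest class a summit was found at 21.2% of 496 pairs of up to 200 bp and 11.3% of 80 pairs of 200 to 400 bp, which is the opposite order. In the middle class the values were 26.0% of 246 and 36.9% of 374 pairs, and in the AT-richest class 20.5% of 44 and 50.4% of 488. The higher share at longer gaps was thus seen in the middle and AT-richest classes and not in the AT-poorest, and the part of composition in the step was not tested.

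**Figure D2:**
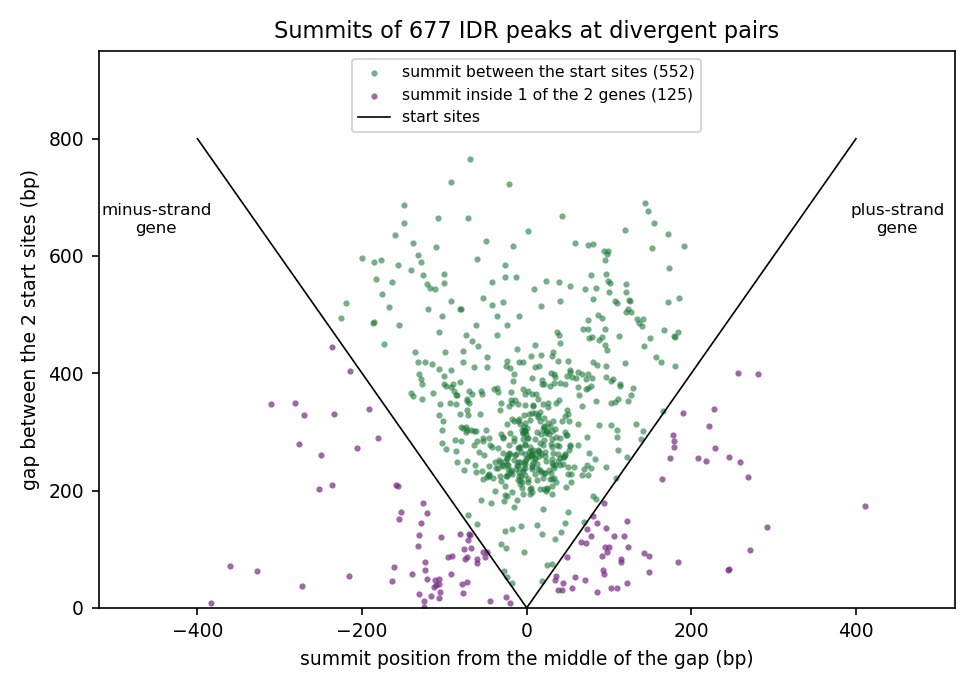
Position of each of the 677 member summits (1 point each) from the middle of its gap (x axis, bp) against the gap between the nearest minus- and plus-strand start sites (y axis, bp); the lines are the start sites. The 552 summits between the start sites crowd around the middle at gaps of about 200 to 300 bp, and the 125 inside a gene lie mostly at the narrow gaps.

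Where the summit stood also differed with the gap. A member's gap was taken between the minus- and plus-strand start sites nearest to its summit; it ranged from 2 to 766 bp with a median of 292 bp (quartiles 225 and 399). The summit lay between the start sites at 552 of the 677 members, or 81.5% (78.4 to 84.3), against 78.0% in replicate 1 and 84.4% in replicate 2. At gaps of up to 100 bp this held for 7 of 72 members, at 100 to 200 bp for 31 of 60, at 200 to 300 bp for 203 of 222, at 300 to 500 bp for 227 of 239, and beyond 500 bp for all 84, which the rule fixes, since a summit outside such a gap is too far from 1 of the start sites. Without those 84, the summit lay between the start sites at 468 of 593 members (78.9%). At gaps of up to 100 bp the share was 9.72% in the IDR list, 2.94% in replicate 1 and 18.4% in replicate 2, and a narrow gap leaves few positions between the start sites in any case. Of the 125 summits outside the gap, 102 lay in a 5′ UTR, 22 in an intron and 1 in a coding exon, the last at CG17186 and Arc42 (chr3R:19877706-19878081, rank 7462, rank 5556 in replicate 1 and no summit within 100 bp in replicate 2).

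At the smallest gaps a summit has almost no room between the start sites, and the distance into a gene varied. The start sites of dpa, the Mcm4 subunit of the replicative helicase, and didum, a class V myosin, are 2 bp apart, and the summit lay 124 bp inside dpa, with rank 3100 (3756 in replicate 1 and 2512 in replicate 2). At SerRS, the seryl-tRNA synthetase gene, and CG17260 the start sites are 8 bp apart and the summit lay 16 bp inside SerRS, at rank 764 (1244 and 325). At CG9588 and the kinase gene Lkb1, also 8 bp apart, it lay 380 bp inside CG9588, at rank 2382 (2489 and 2525).

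At the other end, the widest gaps were 766 bp at CG43325 and CG13510, 726 bp at the lipase gene Lip3 and CG34309, and 723 bp at CG2182 and Wdr33, a gene of mRNA 3′ end formation. Their peaks were weaker, with IDR ranks of 7224, 5780 and 6114. The first ranked 6182 in replicate 1 and 17725 in replicate 2, while the other pair of peaks differed less, with 6234 and 7032 for Lip3 and 6694 and 5912 for CG2182.

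The median distance from the summit to the farther start site increased with the gap, by less over the 3 shortest classes than beyond them. It was 125.5 bp at gaps of up to 100 bp, 133 bp at 100 to 200 bp and 155.5 bp at 200 to 300 bp, then 255 bp at 300 to 500 bp and 387 bp beyond. Replicate 1 gave 127, 147.5, 153, 247.5 and 392 bp, replicate 2 gave 110.5, 146, 159.5, 246 and 377 bp, and the pooled list 119, 148, 180, 295 and 406 bp. The farther start site cannot be closer than a start site is to the middle of the gap, and the rule keeps it within 500 bp. Part of the increase with the gap is therefore fixed in advance in every list. The distance to the nearer start site was 64.5, 44.5, 97.5, 128 and 179.5 bp in the same classes, and its lowest value fell at gaps of 100 to 200 bp. Over all members the nearer start site was a median of 105 bp away, against 194 bp to the nearest protein-coding start site for the other promoter peaks, a measure that the nearness of 2 start sites lowers by itself. The nearer start site was the minus-strand one at 330 members (48.7%, 45.0 to 52.5), an interval that includes an even split. In the pooled list it was 45.2% (42.8 to 47.6), below an even split.

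Between the start sites, summits stood near the middle at gaps just over 200 bp. At gaps of 200 to 300 bp the 203 summits were a median of 25.5 bp from the middle, and 72.9% (66.4 to 78.6) lay in the central stretch that makes up 33.3% of the gap. At 300 to 500 bp the 227 summits were 62 bp from the middle with 52.4% in the central stretch, and beyond 500 bp the 84 summits were 104 bp away with 42.9%, where the 500 bp rule also limits the positions a summit can take. The centre of the most AT-rich 51 bp of the gap lay a median of 28, 56 and 89.5 bp from the summit in the 3 classes, and 23, 47 and 97 bp from the middle of the gap. It was closer to the summit than to the middle at 41.9%, 42.3% and 40.5% of members. The intervals were 35.3 to 48.75%, 36.04 to 48.79% and 30.6 to 51.2%. All but the last lay below an even split, but an even split is not the share to expect here. The AT-rich window had to lie inside the gap. Placed there at random, it would also be closer to the middle than to an off-middle summit more often than not. These shares therefore cannot tell whether the AT-rich stretch goes with the summit or with the middle, and this was not tested.

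Most gene pairs held 1 peak. Counting each member at its nearest pair of genes, 639 of 658 gene pairs had 1 peak and 19 had 2. At 16 pairs of start sites, 2 summits had the same start sites nearest to them, and at 13 of these both summits lay between them. The strongest 4 with more than 1 peak were at CG1275 and Elp5, Wdr37 and koko, Elp6 and Dic1, and Brf and sds22. At Brf, a subunit of the RNA polymerase III factor TFIIIB, and sds22, a regulator of protein phosphatase 1, a peak of rank 458 (659 and 264 in replicates 1 and 2) lay between the start sites, and a second of rank 1494 (1591 and 3480) lay 117 bp inside sds22. At Wdr37 and koko the peak between the start sites ranked 230 (264 and 210). The second, 66 bp inside koko, ranked 6602, and it ranked 7441 in replicate 1 and had no summit within 100 bp in replicate 2. At CG1275 and Elp5, an Elongator subunit, both summits lay in the 5′ UTR of Elp5, at ranks 187 and 1739. Elp5 has more than 1 start site, and the stronger summit lies upstream of the Elp5 start site nearest to the weaker summit. At Elp6, also an Elongator subunit, and the mitochondrial carrier gene Dic1 the peaks of ranks 330 and 2545 lay between start sites at different places, since these genes have several. The 2 peaks at Brf and sds22 had the same start and end in the IDR list, as did those at Wdr37 and koko. Those at CG1275 and Elp5 had the same start. At these 3 pairs the peaks are thus 2 summits within 1 listed stretch and not separate stretches. The deposited lists hold no summits closer than 199 bp to each other, so closer pairs of peaks could not be seen.

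The rule has a limit at 500 bp. Just inside it lay the peaks at Spn27A (a serpin) and CG34310, with the farther start site 500 bp away and rank 5335, at CG14968 and ZnT63C (a zinc transporter), 498 bp and rank 453, and at sni and Trxr1 (thioredoxin reductase), 498 bp and rank 5458. Just outside were the peaks at Cul5 (a cullin) and Bicra, 1 bp beyond it and rank 1953, Pgk (phosphoglycerate kinase) and Bacc, 1 bp beyond it and rank 3644, and CG12929 and RpL31 (a ribosomal protein), 2 bp beyond it and rank 4924. The farther start site lay in the last 50 bp before the limit at 24 members, and in the first 50 bp beyond it at 26 peaks that were left out.

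**Figure D3:**
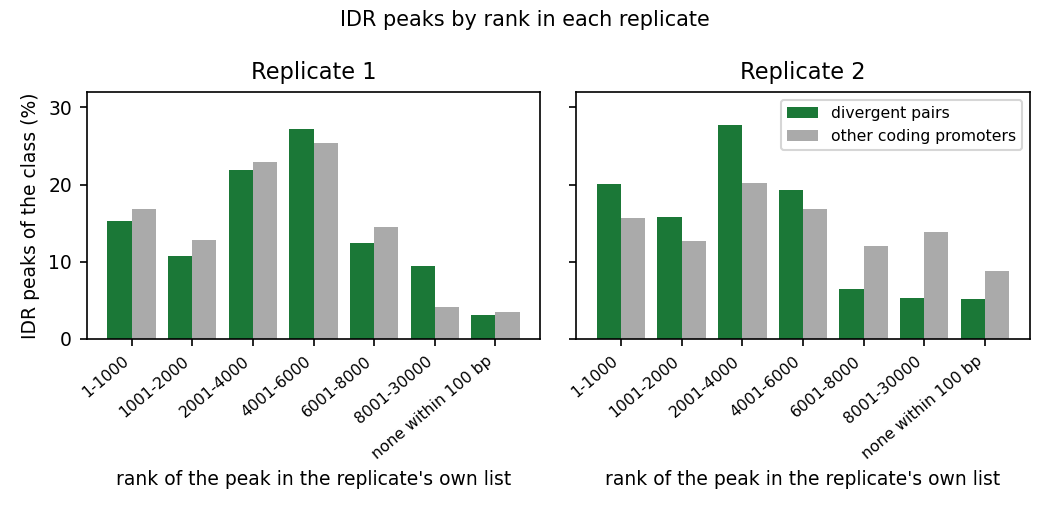
IDR peaks at divergent pairs (677) and at other protein-coding promoters (1559) by the rank of the matching peak in each replicate's own list (x axis), as a share of each class (%, y axis). In replicate 2, 20.1% of divergent peaks ranked among the first 1000, and in replicate 1, 15.2%; the other promoter peaks had 15.7% and 16.9% there.

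The replicates agreed on where the members are but differed in how highly they ranked them. A summit lay within 100 bp in both replicate lists at 623 members, or 92.0% (89.7 to 93.8), against 88.0% of the other promoter peaks and 92.3% of all IDR peaks. The median offset was 5 bp from the replicate 1 summit and 17 bp from that of replicate 2. Since the authors derived the IDR list from both replicate lists, this agreement is not independent of it.

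In replicate 2 the members' median rank was 2681, against 3660 for other promoter peaks. In replicate 1 it was 4040.5 for members and 3642.5 for the others, the opposite order. Of the 623 members found in both lists, 445 ranked higher in replicate 2 than in replicate 1, or 71.4% (67.8 to 74.8), against 567 of 1372 other promoter peaks, or 41.3% (38.8 to 44.0), and 44.7% of all IDR peaks. Any order of strength between the classes therefore depends on the replicate. In the IDR list the median rank was 3514 for members and 3791 for other promoter peaks, and, with the list cut into 4 parts of equal size from strongest to weakest, members made up 30.8%, 33.3%, 31.1% and 26.0% of the coding promoter peaks in each. What sets the replicates apart in this was not tested.

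**Figure D4:**
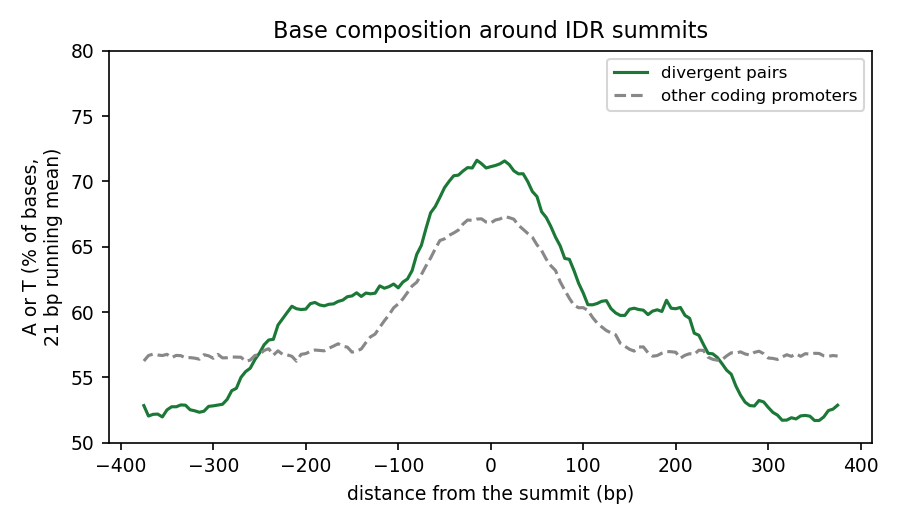
Mean A or T content (%, y axis, running mean over 21 bp) against distance from the IDR summit (x axis, bp) for peaks at divergent pairs and at other protein-coding promoters. At the summit it was 71.1% for divergent pairs and 66.8% for other promoters, and 350 bp away on the left it was 52.5% and 56.8%.

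The members' summits were AT-rich. Within 50 bp of the summit the sequence held 70.8% ± 8.40 A or T (SD over 677 peaks), against 66.6% ± 9.70 over the 1559 other promoter peaks. Windows 250 bp to each side were alike, with 56.4% at members and 56.7% at the others. The summit window was richer than its own flanks at 596 members (88.0%) and at 1219 other promoter peaks (78.2%). All 7645 IDR peaks together had 68.9% A or T at the summit and were richer than their flanks at 88.7%, so AT-rich summits were common to the whole list. In the profile of base composition, members had a shoulder near 60% at 200 bp on both sides, against 57% at the others, and then fell to 52% at 350 bp, where the other promoters stayed at 57%. Over all pairs the order was the same: the stretch within 50 bp of the middle of the gap held 70.0% ± 9.86 A or T (SD) in the 712 pairs with an IDR summit and 65.3% ± 10.5 in the 1955 without one. These groups also differ in gap. Within gap classes the values with and without a summit were 55.6% and 55.8% up to 100 bp, 63.3% and 59.9% at 100 to 200 bp, 74.9% and 70.3% at 200 to 300 bp, 73.3% and 71.0% at 300 to 500 bp, and 71.6% and 66.1% beyond, so the order did not hold in the narrowest class. In that class the window around the middle of the gap also takes in gene sequence on both sides.

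Core promoter words were counted within 50 bp of the summit on both strands, as letters and not as sites. The TATA box letters TATAAA were found at 31.2% of members and 22.1% of other promoter peaks, with 31.5% and 20.9% in replicate 1 and 32.1% and 24.2% in replicate 2. The middle of the gap held them in 28.1% of pairs with a summit and 20.8% of pairs without, and in 22.7% of all pairs. AT-rich letters are more frequent in AT-rich windows, and no correction was made for this. GAGAGA, the letters of the GAGA factor site, went the other way, with 0.886% of members and 5.58% of other promoter peaks; replicate 1 gave 1.43% and 6.82%, and replicate 2 gave 0.917% and 4.02%. In the middle of the gap GAGAGA was in 2.74% of all pairs.

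TATCGATA, the letters of the DNA replication-related element (DRE) of housekeeping promoters, was found at 2.66% (18) of members and 1.03% (16) of other promoter peaks. At the middle of the gap it was in 3.09% of pairs with a summit and 5.52% of pairs without, and in 4.87% of all pairs. The letters were thus more frequent at members than at other promoter peaks. At the middle of the gap they were less frequent in pairs with an IDR summit than in pairs without one. These groups of pairs also differed in gap, with medians of 274 and 319 bp, and the rest of the gap was not searched. The core of the DRE, ATCGAT, which lies within it, showed the same order. It was found at 5.91% of members and 3.66% of other promoter peaks. At the middle of the gap it was in 8.57% of pairs with a summit, 13.6% of pairs without and 12.3% of all pairs. Ohler motif 1 (GGTCACAC) was in 1.18% of members and 0.834% of other promoter peaks, and in 1.69% of pairs with a summit, 3.22% of those without and 2.81% of all pairs. TCAGT, a form of the Initiator, was in 12.7% of members and 16.8% of the others, and runs of 7 A on either strand (AAAAAAA) in 14.9% and 18.0%. In the middle of the gap of all pairs these were in 15.5% and 12.6%. Within 50 bp of the summit, the other 5 words searched were in at most 5.02% of members: Ohler motif 6 (GTATNTTT) in 5.02% of members and 4.75% of other promoter peaks, the E-box CAGCTG in 2.95% and 2.50%, Ohler motif 7 (CATCNCTA) in 1.18% and 1.67%, the CA repeat CACACACA in 0.591% and 1.67%, and the Su(Hw) core TGCATACT in 0.443% and 0.385%. All pairs held them at the middle of the gap in 7.20%, 6.75%, 2.17%, 0.375% and 0.375%.

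**Figure D5:**
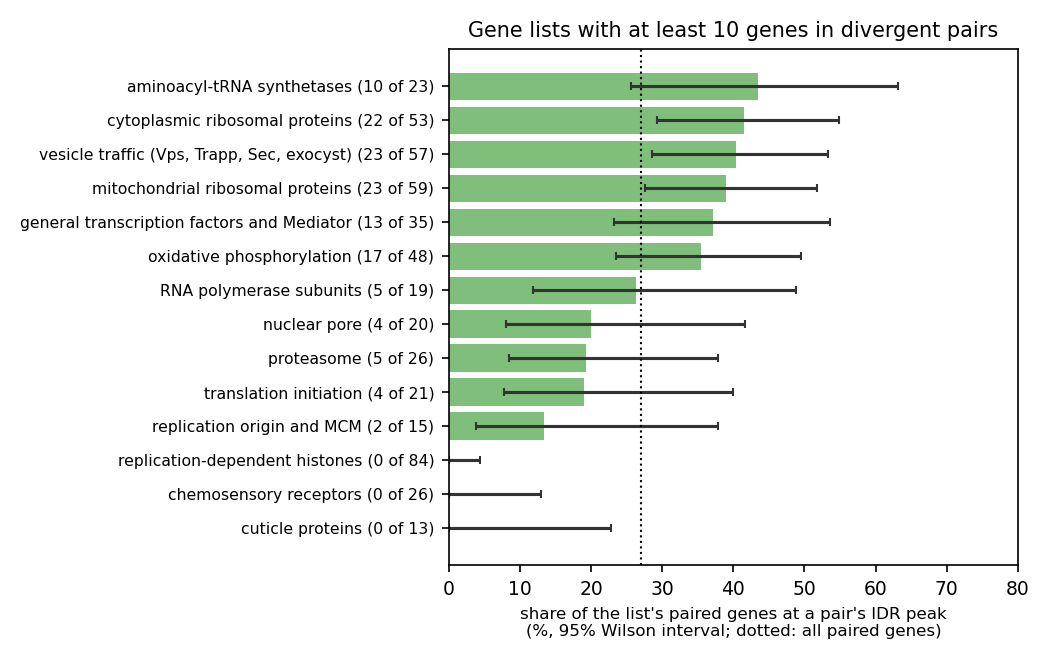
Share of each gene list's members in divergent pairs that lie at an IDR peak of a pair (%, x axis; bars: share, lines: Wilson 95% interval), for lists with at least 10 such genes, with counts in the labels; the dotted line is the share over all genes in pairs, 27.0%. Ribosomal, aminoacyl-tRNA synthetase and vesicle traffic lists lie near 40%, and histone, chemosensory and cuticle lists at 0.

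The genes at members were then set against lists of known function, read beside the share over all genes in divergent pairs: 1364 of 5052 were at a member peak, or 27.0%. Many housekeeping lists have most of their genes in such pairs, so counts are given over the genes in pairs. Of the 53 cytoplasmic ribosomal protein genes in pairs, 22 were at a member peak (41.5%, 29.3 to 54.9), and for the mitochondrial ribosome it was 23 of 59 (39.0%, 27.6 to 51.7). These lists, the vesicle traffic list (Vps, TRAPP, Sec, COG, exocyst and Rab genes) with 23 of 57 (40.4%, 28.6 to 53.3) and no other list with at least 10 genes in pairs had an interval wholly above 27.0%.

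The cytoplasmic ribosomal proteins at the strongest members were RpL34b with CG8132 at rank 1180 (1247 in replicate 1 and 1032 in replicate 2), RpL32 with CG7943 at 1269 (1734 and 799) and RpS20 with CG17271 at 2016 (2372 and 1575). Their summits lay 142, 151 and 160 bp upstream of the ribosomal protein's start site, in gaps of 269, 309 and 333 bp. All 3 ranked higher in replicate 2. The mitochondrial list reached further up, with mRpS10 and mRpS23 among the first 10 and mRpL23 with CG9004 at rank 75 (148 and 33), 81 bp inside mRpL23. In the vesicle traffic list, Vps33B with Fur1 was at rank 563, the exocyst gene Sec6 with Atg7 at 1434 and Sec61alpha, the main subunit of the translocon, with Daxx at 1681.

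Aminoacyl-tRNA synthetases, which charge tRNAs, had 10 of 23 genes in pairs at a member peak (43.5%, 25.6 to 63.2), led by IleRS with Hem at rank 697, SerRS at 764 and GluProRS with AP-1sigma at 1138. General transcription factors and Mediator had 13 of 35 (37.1%), among them the TFIID subunits Taf5 with Pex6 at rank 643 and Taf2 with CalpB at 884, and MED30 with Rev1 at 1077. That list did not hold the TFIIH gene Ssl1, which was at the member of rank 13. Oxidative phosphorylation had 17 of 48 (35.4%), led by the complex I genes ND-ASHI with Fum1, another mitochondrial enzyme (fumarase), at 345, ND-MWFE with TppII at 972 and ND-51 with CG13994 at 2371. The intervals of these 3 lists include the share over all genes in pairs.

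The other housekeeping lists with at least 10 genes in pairs had shares at or below 27.0% in the IDR list. This placing depended on the list of peaks: in the pooled list 76.9% of the proteasome genes in pairs and 63.2% of the RNA polymerase genes were at a peak of a pair, against 55.3% over all genes in pairs. RNA polymerase subunits had 5 of 19 (26.3%), with Polr3E at rank 584, Polr2B at 1405 and Polr2H at 1677. Nuclear pore genes had 4 of 20, with Nup98-96 at 1722, Nup37 at 2183 and Nup93-2 at 5208, and the proteasome had 5 of 26 (19.2%), with Rpn3 at 1688, Rpn5 at 4556 and Rpn8 at 5810. Translation initiation factors had 4 of 21, with eIF4EHP at 22 far ahead of eIF3h at 1764 and eIF1 at 4994. The replication origin and MCM list had 2 of 15, Mcm2 with RPA1 at 2308 and dup at 5923. It did not hold dpa, the Mcm4 gene, which was at a member of rank 3100. All these intervals include 27.0%, so none of these lists was below it beyond counting error.

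Lists of histone, chemosensory and cuticle genes had no gene at a member. None of the 84 replication-dependent histone genes in pairs was at a member, a count of 0 that allows a share of up to 3.57% (3 counts of the total, here and in the next counts, in place of the Wilson limit), and none was at a pooled peak. The treatment of reads in these near-identical repeats is not known from the labels, so the histone count is uncertain. None of 26 chemosensory receptor genes (up to 11.5%) and none of 13 cuticle protein genes (up to 23.1%) in pairs was at a member. In the pooled list 4 of the 26 chemosensory genes (15.4%) and none of the 13 cuticle genes were at a peak of a pair. Heat shock, immune peptide and homeobox patterning genes had 4, 3 and 1 genes in pairs and none at a member, too few to read. Among genes of the ecdysone response, which drives metamorphosis, 1 of 5 was at a member: usp, the partner of the ecdysone receptor, with CG4313 at rank 3202 (3903 and 2406). The insulator and promoter factors had 4 of 8, with Chro at 13, Cp190 with CG4338 at 136 (152 and 123) and M1BP, also a ZAD protein, with CG8202 at 2091. Mitochondrial import had 2 of 5, Tom7 at 1388 and Tim10 at 6827.

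In all, 135 of the 525 listed genes in pairs were at members (25.7%, or near the share over all genes in pairs). The 525 include the 84 histone genes, whose count of 0 is uncertain. Without them both shares would be higher, the listed one by more. At 7 member peaks both genes of the pair were on lists, and the 6 of highest signal joined different lists in all but 1 case. RpS27 with Nup37 ranked 2183 (2937 in replicate 1 and 1221 in replicate 2), ATPsynCF6 with the coat protein gene Sec13 ranked 3709, the tethering genes Cog3 and Sec5 ranked 3985, Sec3 with COX7B ranked 4204, and RpL28 with eIF1 ranked 4994. Dref, which encodes the factor that binds the DRE, and RpL13 shared a peak of rank 4758 that ranked 4964 in replicate 2 and had no replicate 1 summit within 100 bp. All 6 peaks ranked below the first 2000 of the IDR list. This holds for the lists as drawn up, which were not complete. The Chro and Ssl1 peak of rank 13 was not counted here, since Ssl1 was on no list.

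Listed pairs without an IDR summit near either start site included narrow ones, such as AlaRS-m and Fitm (gap 35 bp), bonsai, a mitochondrial ribosomal gene, and Cdk9 (43 bp), and ATPsynD and mRpL55 (95 bp). They also included Cdc45 and Rpp21 at 202 bp, AttC, an antibacterial peptide gene, and CG43691 at 344 bp, and the cuticle genes Ccp84Ae and Ccp84Ad at 974 bp. They were taken by alphabet, 1 for each of 6 lists.

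The members were spread over all main arms, with 143 on 2L, 120 on 2R, 148 on 3L, 199 on 3R, 66 on X and 1 on chromosome 4, at CG46466 and Slip1. The share of an arm's pairs with a summit was 32.5% (29.1 to 36.1) on 3R, 29.5% on 3L, 26.9% on 2L, 23.8% on 2R and 17.4% (14.0 to 21.4) on X. The intervals of 3R and X did not overlap, and the cause was not tested.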

How the data were processed

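ChIP-seq peaks of CG17806-GFP were analysed from 2 biological replicates of 1 group. Per the descriptions deposited beside the files, each replicate's list came from its alignment and a control alignment, the pooled list from both replicates and the control, and the IDR list from these lists, all on dm6. The deposited lists give per peak a signal, a −log10 q-value and, as the other value used, the authors' summit offset. Signal served only as a rank, and the deposited −log10 q-value was not used for any result. The sources used here do not give the aligner, the caller or the IDR threshold. Control reads and signal tracks were not used here.

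Start sites came from Ensembl release 115 and sequence from the Release 6 assembly. Python 3.11.15, pandas 2.3.3, NumPy 2.4.6 and matplotlib 3.10.9 were used. The classification was tested on simulated data. The members, 20 gene lists and 12 motifs were chosen with earlier results of these data known. Genes named are those at the 12 strongest members, the 3 smallest and 3 largest gaps, the 3 peaks on each side of the 500 bp limit, up to 4 pairs with 2 peaks, up to 3 per list, up to 6 pairs with both genes on lists and up to 6 pairs without a summit; CG8372 and CG8360, CG17186 and Arc42, the mod(mdg4) locus, and CG46466 and Slip1 were added after their values were seen. The pair of 1 of the 12 strongest members is not reported here. Alternatives were the pooled list, the strongest 1911 IDR peaks, 1 replicate alone, 1 start site per gene, and other distances and windows. Intervals are at the 95% level.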

Additional observations from a re-analysis of the deposited data

How the results depend on the processing

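The difference in share between pairs with longer and shorter gaps, the only value below that could change sign, kept its sign. The order of members and other promoter peaks by median rank was opposite in replicate 1 (4040.5 against 3642.5) to that in the IDR list (3514 against 3791). With the pooled list there were 1672 peaks at divergent pairs, 54.7% of pairs had a summit, 66.2% of summits lay between the start sites, the nearer start site was 92 bp away, the median rank was at 32.1% of the list (46.0% in the IDR list), AT content was 65.1%, 266 listed genes were at members, and the share of pairs with a gap over 200 and up to 400 bp exceeded that with up to 200 bp by 9.51 percentage points (19.1 in the IDR list; this split was chosen after the values were seen). With the strongest 1911 IDR peaks these were 197 peaks, 8.44% of pairs, 116 bp, 73.1% A or T and 5.59 points. With 250 bp to a start site they were 435 peaks, 97 bp, 72.1%, 15.5 points and 94.0% found in both replicate lists, and with 1000 bp, 116 bp and 69.6%. One start site per gene gave 71.1% A or T. Windows of 25 and 100 bp gave 71.4% and 68.0%; 50 and 200 bp for shared summits gave 79.0% and 95.7%; and windows of 100 bp gave DRE 9.31%, TATA box 51.3% and GAGA 2.51%, as well as DRE core 16.5%, Ohler motif 6 11.1%, Ohler motif 7 9.16% and E-box 8.57%.

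Single replicates gave 631 to 763 peaks, 24.8 to 29.8% of pairs, 78.0 to 84.4% between, 106 to 108 bp, ranks at 41.6 to 50.5%, 70.6 to 70.8% A or T, DRE 2.69 to 2.88%, TATA box 31.5 to 32.1%, GAGA 0.917 to 1.43% and 17.0 to 21.1 points. The causes of these differences were not tested. No paired analysis was possible because the samples form 1 group and no result comes from a test. Depth is unknown, so a missing peak does not show that a pair is unbound.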
